A study of Mus musculus with 7 samples.

Results

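Clone A1 of the B16F10 melanoma line was compared with the 4 PECAM1+ clones of the same line, A2, A3, A4 and A5. Each sample had 1 Affymetrix Mouse Gene 1.0 ST array, which reads the transcripts of most mouse genes. The 5 arrays of this comparison were taken from 7 in all by the sample titles, and the other 2 were parental B16F10 cells and mouse dermal endothelial cells (MDEC). B16F10 is a pigmented mouse melanoma cell line known for its growth in the lung after injection. The labels give the PECAM status of clone A1 and parental cells as negative and that of clones A2 to A5 as positive. PECAM1 is an adhesion molecule best known from the junctions between endothelial cells. The labels list no treatment, agent or allele for any B16F10 sample, and parental cells and clones were kept in DMEM with 10% fetal bovine serum and harvested with Accutase. Each clone is 1 line, so clone A1 stands for itself and not for PECAM1- cells in general.

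The lists that follow are mostly of cell division and cell stress, and some background helps in reading them. Cells that divide make, at one point of the cycle, the enzymes that copy DNA under the control of E2F factors, and later the kinases, motors and kinetochore proteins of mitosis, whose promoters often carry a cell cycle homology region (CHR) and CCAAT boxes. Cells short of amino acids or with unfolded protein in the endoplasmic reticulum activate the transcription factor ATF4, and cells under oxidative stress activate NRF2, which raises glutathione synthesis. PACAP, the peptide encoded by Adcyap1, acts through receptors that raise cyclic AMP, and cyclic AMP acts on transcription through CREB and its relatives.

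A gene was counted as apart in clone A1 when its log2 level lay at least 1 unit (2-fold) from the mean of the 4 clones and outside their range. This size rule needs no replicate of clone A1. Beside it stands a limma fit across all 19938 genes with Benjamini-Hochberg adjustment and a threshold of 0.05, in which the lone array of clone A1 is assumed to vary like the 4 clones. The labels do not say whether the clones were separate cultures taken at different times, so limma's p-values measure the spread between these samples.

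The labels were checked first. Pecam1 was at 5.43 in clone A1 and 5.27 in parental cells, and at 11.07, 11.01, 11.03 and 11.00 in clones A2 to A5, which matches the PECAM labels. The pigment genes that define melanocytes were high in clone A1 as in the other clones: Tyrp1 was at 13.03 in clone A1 against 12.89 to 13.09 in the clones, Dct at 12.89 against 12.34 to 12.86, and Mlana at 12.24 against 12.13 to 12.52, while MDEC had 4.95, 4.99 and 6.43. The endothelial genes Cdh5, Kdr and Tek were near the floor of the arrays in clone A1, at 5.05, 4.68 and 4.69, against 12.41, 9.15 and 8.37 in MDEC. Not all of the 24 endothelial genes were that low, and the highest on each array was at 10.95 in clone A1 and at 11.49 to 11.75 in the clones. None of the 14 leukocyte, 14 fibroblast and mural or 11 keratinocyte markers passed the size rule, and without clone A5 1 fibroblast and mural marker did, on the lower side. No defining marker is listed at 0, since background signal gives these arrays a floor above 0. Mean log2 levels over the whole leukocyte list were 5.12 in clone A1 and 5.14 to 5.27 in the clones, over the fibroblast and mural list 5.57 against 5.72 to 6.00, and over the keratinocyte list 5.46 against 5.48 to 5.55.

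By the size rule 1308 of 19938 genes (6.56%) set clone A1 apart, 647 higher (3.25%) and 661 lower (3.32%). The larger differences were mostly losses: 285 genes differed at least 4-fold, 83 higher and 202 lower, and 88 at least 8-fold, 15 higher and 73 lower. Over all genes the median difference was −0.0048 and the median absolute difference 0.15 log2 units, against a median SD of 0.10 over the 4 clones. limma called 4089 genes (20.5%), 2228 higher (11.2%) and 1861 lower (9.33%) in clone A1. This count fell to 2208 without clone A3 and 2108 without clone A5, and 1552 of the 4089 genes were called on leaving out each of the 4 clones in turn. Clone A1 lay outside the range of the clones, by any distance, at 11946 genes (59.9%). The count by the size rule was between 1285 and 1342 on leaving out a clone. Tmem62 (1.0001) and Pex13 (1.0002) lay just inside the limit of 1, and Noc4l (−0.9998) and Pkig (−0.9997) just outside it. The shares of all genes given here are the background for the counts of the gene lists below.

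**Figure D1:**
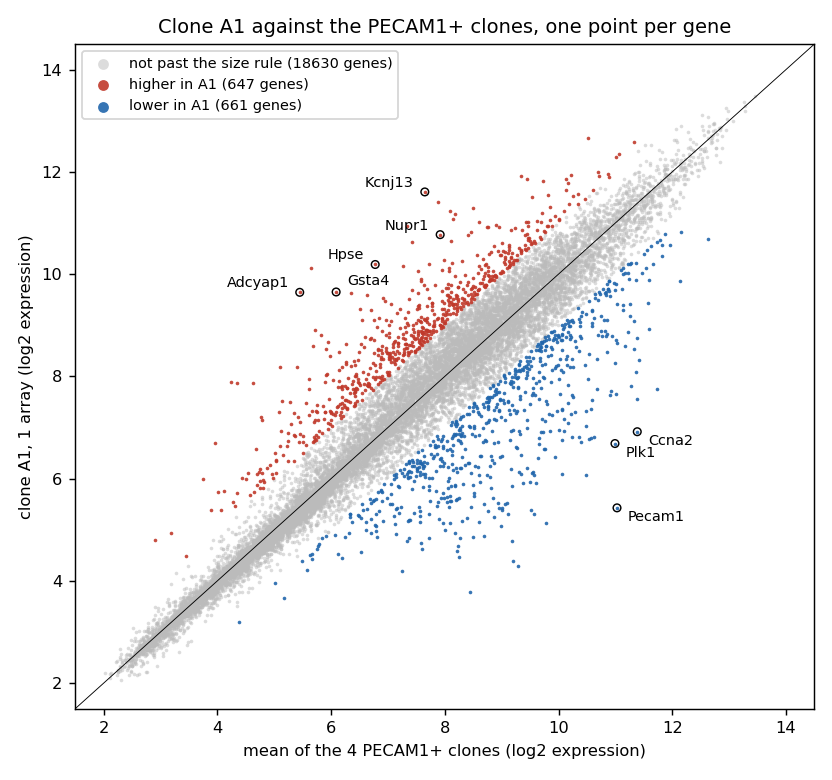
Log2 expression of 19938 genes in clone A1 (vertical axis, 1 array) against the mean of the 4 PECAM1+ clones (horizontal axis), with the line of equal levels. The 647 genes past the size rule higher in clone A1 are red and the 661 lower ones blue, and circles mark 8 named genes, with Pecam1 farthest below the line.

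Parental cells served as a check of what was particular to clone A1. Of the 1308 genes, 1031 (78.8%) also lay at least 1 log2 unit from parental cells in the same direction, 520 of the higher and 511 of the lower ones. For 9 of those 1031 and for 45 further genes, parental cells lay at least 1 unit from the clones on the side of clone A1, and 232 genes were in neither class. In a limma fit with parental cells as a group of their own, clone A1 differed from parental cells at 2862 genes (14.4%), 1562 higher (7.83%) and 1300 lower (6.52%). That count was 1340 without clone A3 and 1426 without clone A5. Both comparisons use the same array of clone A1, and the spread in both comes from the same 4 clones.

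**Figure D2:**
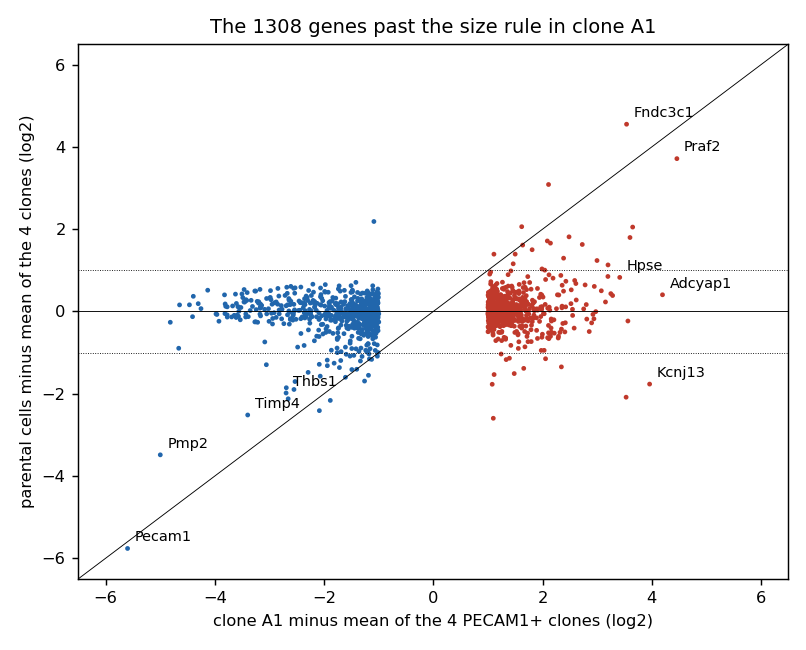
Difference between parental cells and the mean of the 4 PECAM1+ clones (vertical axis, log2) against the difference between clone A1 and that mean (horizontal axis, log2) for the 1308 genes past the size rule, higher ones in red and lower ones in blue. Dotted lines lie 1 log2 unit from 0 and the diagonal marks equal differences. Most genes lie between the dotted lines, while Pecam1, Fndc3c1 and Praf2 lie near the diagonal or above it.

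The 7 genes taken as markers of clone A1 (Ccna2, Plk1, Kcnj13, Adcyap1, Gsta4, Hpse and Nupr1) were chosen with these values known, so their levels describe the clone and are no test of it. Ccna2, which encodes cyclin A2 of S phase and mitotic entry, was at 6.92 in clone A1, at 11.48, 11.39, 11.33 and 11.34 in clones A2 to A5 and at 11.54 in parental cells. Clone A1 was 22.1-fold below the clones, which lay within 0.15 units of each other. Kcnj13, an inwardly rectifying potassium channel, was at 11.61 in clone A1 and at 8.13, 6.11, 9.37 and 6.98 in the clones, with 5.88 in parental cells. Clone A1 was highest, but the clones themselves spread widely and the difference of 3.96 ± 1.37 (SE) did not pass limma (adjusted p = 0.133). Hpse, the heparanase that cuts heparan sulfate chains, was at 10.19 in clone A1, at 7.44, 5.84, 7.27 and 6.56 in the clones and at 7.60 in parental cells. Its difference was 3.41 ± 0.71 (limma adjusted p = 0.0434), and the call was lost on leaving out any clone (limma adjusted p from 0.0579 to 0.131).

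**Figure D3:**
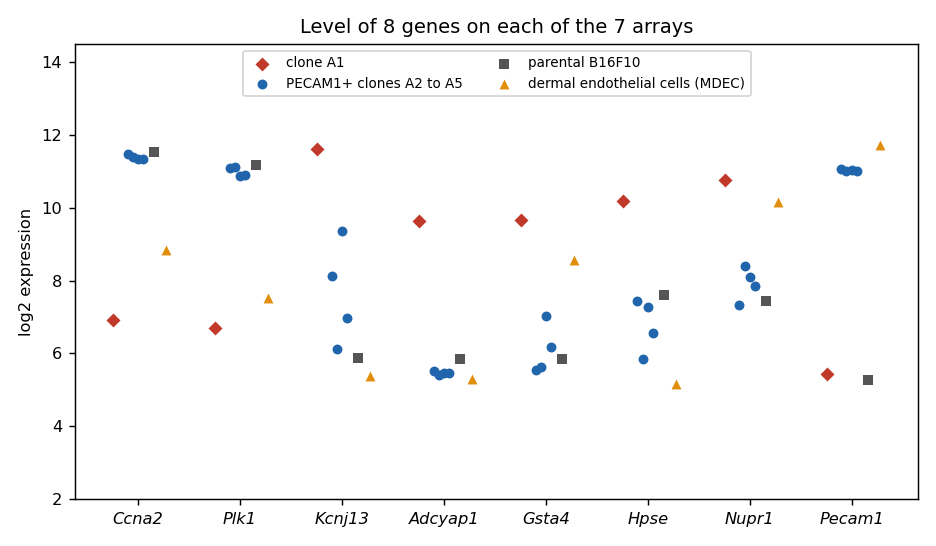
Log2 expression of the 7 marker genes and Pecam1 on each of the 7 arrays: clone A1 (red diamonds), clones A2 to A5 (blue circles), parental cells (grey squares) and MDEC (orange triangles), 1 point per array. Clone A1 lies outside the range of the clones for all 8 genes, and for Kcnj13, Gsta4, Hpse and Nupr1 the clones differ among themselves by more than 1 unit.

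The largest change was a loss of transcripts of mitosis. Of 55 measured genes of mitosis and the kinetochore, 54 were lower in clone A1 by the size rule (background 3.32%) and 54 by limma (background 9.33%), with a median of −2.99 against the clones and −3.29 against parental cells. The limma count was between 51 and 54 on leaving out a clone. Plk1, the Polo-like kinase that starts and ends mitosis, was at 6.69 in clone A1, at 11.09, 11.11, 10.87 and 10.90 in the clones and at 11.18 in parental cells. The array of clone A1 lay outside the range of the clones, as it did at 59.9% of all genes. The difference was −4.31, or 19.8-fold. Cdk1, the kinase that drives entry into mitosis, was at 8.60 in clone A1 and 11.21, 11.23, 11.08 and 11.14 in the clones (−2.57 ± 0.08, limma adjusted p = 0.00186). Its partner cyclin gene Ccnb2 was at 8.09 against 11.60, 11.39, 11.14 and 11.30, and Aurka, the kinase of the spindle poles, at 7.66 against 10.99, 11.10, 10.90 and 11.07. Both were more than 8-fold lower in clone A1, and parental cells, at 11.85 and 11.04, lay with the clones. In bulk RNA, fewer cells in mitosis and less of these transcripts per cell cannot be told apart.

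The same loss ran through the parts of the mitotic machinery. Among kinetochore and checkpoint genes, Nuf2 had a difference of −4.41 log2 units, Bub1 of −3.96 and Aurkb, the kinase of the centromere, of −3.82, each called by limma in the full set of clones and without any 1 of them. Among spindle motors, Kif11 had a difference of −3.41, Kif18b of −3.50 and Cenpe, the kinetochore motor, of −3.44. Kif20a, a motor of cell separation, had −3.56, and its limma call (adjusted p = 0.00996) was lost without clone A5 (limma adjusted p = 0.0502). The proliferation marker Mki67 was at 6.71 in clone A1, at 10.41, 10.44, 10.34 and 10.36 in the clones and at 10.52 in parental cells. Foxm1 and Mybl2, transcription factors of the mitotic genes, had differences of −2.65 and −2.82. Pttg1, which encodes securin, the inhibitor of separase, was the 1 member on the other side, at 9.09 in clone A1 and 8.39, 8.39, 7.98 and 8.23 in the clones (0.85 ± 0.19, limma adjusted p = 0.0514). Parental cells had 8.74.

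The promoters of 4 of these genes are shown because the 2 motifs tied to mitotic transcription can be read in them. They are RefSeq promoter windows on GRCm38.p6, from 250 bases before to 50 bases after the start, written 5′ to 3′ on the gene's strand. Capitals mark the CHR (TTTGAA) and the CCAAT box (CCAAT), each searched on both strands, so that the reverse form ATTGG is in capitals too. The windows are chr7:122159185-122159484 on the plus strand for Plk1, and, on the minus strand, chr10:69352863-69353162 for Cdk1, chr9:70421505-70421804 for Ccnb2 and chr2:172370521-172370820 for Aurka.
Plk1: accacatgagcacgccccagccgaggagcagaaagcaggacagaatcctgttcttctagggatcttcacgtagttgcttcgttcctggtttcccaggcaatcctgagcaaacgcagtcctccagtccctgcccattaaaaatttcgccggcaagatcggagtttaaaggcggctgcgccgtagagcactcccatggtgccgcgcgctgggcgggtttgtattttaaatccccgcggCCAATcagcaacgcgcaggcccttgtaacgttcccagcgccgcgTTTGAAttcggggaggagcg
Cdk1: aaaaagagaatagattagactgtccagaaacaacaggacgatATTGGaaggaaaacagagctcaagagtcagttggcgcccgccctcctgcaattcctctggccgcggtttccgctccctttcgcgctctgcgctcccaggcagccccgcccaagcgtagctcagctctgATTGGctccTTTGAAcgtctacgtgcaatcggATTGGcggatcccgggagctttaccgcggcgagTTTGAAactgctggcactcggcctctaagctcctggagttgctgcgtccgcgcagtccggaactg
Ccnb2: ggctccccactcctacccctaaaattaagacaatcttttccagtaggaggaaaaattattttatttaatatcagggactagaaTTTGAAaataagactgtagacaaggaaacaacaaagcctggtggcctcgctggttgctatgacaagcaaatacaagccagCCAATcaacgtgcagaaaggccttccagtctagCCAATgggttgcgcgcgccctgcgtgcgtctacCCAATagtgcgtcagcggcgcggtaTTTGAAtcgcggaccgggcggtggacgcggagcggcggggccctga
Aurka: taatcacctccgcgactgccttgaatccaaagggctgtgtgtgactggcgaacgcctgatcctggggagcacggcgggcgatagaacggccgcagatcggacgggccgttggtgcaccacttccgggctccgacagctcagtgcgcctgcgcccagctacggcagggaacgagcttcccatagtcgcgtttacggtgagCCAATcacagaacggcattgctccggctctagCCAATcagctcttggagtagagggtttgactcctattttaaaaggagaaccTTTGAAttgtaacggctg

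In these windows the CHR nearest the start began at position 31 in Plk1, 33 in Aurka, 5 in Ccnb2 and −15 in Cdk1, counted in bases from the start, with a CCAAT box upstream of it in each. Promoter windows were at hand for 44 of the 55 mitotic genes (46 windows). The CHR was found in 34 of them (73.9%), the CCAAT box in 33 (71.7%) and both in 29 (63%). Over all 32851 windows of the same length the shares were 17.9%, 37.4% and 6.95%. Over the 19177 windows of the genes tested they were 14.8%, 37.4% and 5.85%. Promoters of the DNA replication genes held the CHR in 7 of 46 windows (15.2%) and those of the recombination and repair genes in 2 of 23 (8.7%), although these genes were lower in clone A1 too. Over the genes past the size rule, 25.3% of the windows of lower genes and 11.4% of those of higher genes held it. The lower genes include nearly all of the mitotic list, so their share is no separate result. A match describes the letters and does not show a bound site.

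Genes of DNA replication and the G1/S transition were lower almost throughout. Of 45 measured, 43 were lower by the size rule and 44 by limma, with a median of −2.17 against the clones and −2.25 against parental cells, and limma called between 40 and 44 of them lower on leaving out a clone. Rrm2, the regulated subunit of ribonucleotide reductase that supplies deoxynucleotides, was at 7.75 in clone A1, at 11.80, 11.85, 11.55 and 11.70 in the clones and at 11.66 in parental cells. Tk1, the thymidine kinase, had a difference of −3.81 and Tyms, thymidylate synthase, of −3.05. Of the helicase subunits, Mcm5 had −3.77, Mcm3 −3.16 and Mcm2 −1.85. The factors E2f1, E2f7 and E2f8, which control these genes, had −2.06, −2.47 and −3.57, and the cyclin genes Ccne1 and Ccne2 −2.74 and −3.22. Pcna, the sliding clamp, changed least among the called members (10.71 in clone A1 against 11.59 to 11.73 in the clones, −0.95), and Slbp, which binds histone messengers, had −0.43 and was not called. Pclaf, the clamp's partner, had −4.40.

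Recombination, repair and histone genes went the same way in part. Of 24 recombination and repair genes, 14 were lower by the size rule and 19 by limma, with a median of −1.37. limma called 13 to 16 of them lower on leaving out a clone. Exo1, Fancd2, Rad51ap1 and Rad54l, which act in strand resection, crosslink repair and strand exchange, had differences of −3.65, −3.61, −3.59 and −2.85. Genes of end joining and of the upstream kinases differed little, with Xrcc5 at 0.27, Xrcc6 at −0.38, Lig4 at 0.43 and Atr at 0.15, none called by limma. Of 31 histone genes with a probe set of their own, 15 were lower by the size rule and 20 by limma, led by H2ac4 (−4.82), H2bc3 (−3.27) and H4c6 (−2.94), with a median of −0.98. Probe sets of histone genes can share sequence with other copies, so single histone genes are uncertain. Esco2, a cohesin acetyltransferase, Neil3, a DNA glycosylase, Pbk, a mitotic kinase, and Pimreg were also among the 15 lowest genes, at −3.82, −3.80, −4.65 and −4.13. Gsdmc, a gasdermin of the pore-forming family, was the member of that group outside the cell cycle that was not shared with parental cells (5.31 in clone A1 against 9.47, 9.48, 9.52 and 9.79 in the clones and 9.63 in parental cells).

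A list that holds inhibitors of the cycle together with cyclins and pocket proteins did not move as a group. Its median mixes genes that restrain the cycle with genes that drive it. Of 26 inhibitors, cyclins and pocket proteins, 3 were lower and 0 higher by the size rule, while limma called 7 higher and 8 lower, with a median of −0.02. On leaving out a clone limma called 4 (without A2), 2 (without A3) or 1 (without A5) higher and 5 (without A2 or A5) or 4 (without A4) lower. Ccnd1, the cyclin of early G1, was at 9.08 in clone A1, at 11.19, 11.60, 11.09 and 11.43 in the clones and at 11.23 in parental cells (−2.24 ± 0.23, limma adjusted p = 0.00955). Rbl1, which encodes the pocket protein p107, and Lin9, a subunit of the complex that binds the CHR, had −1.79 and −1.56. The inhibitor genes Cdkn1b (p27) and Cdkn2c (p18) had 0.35 and −0.55, both within 2-fold, and both calls were lost without clone A5 (limma adjusted p = 0.0656 and 0.0852). Cdkn2c was also lost without clone A2 or A4 (0.0602 and 0.0544). Cdkn2a, at 0.03, and Cdkn1c, at 0.04, were not called. Cdkn1a and Trp53 were not analysed here.

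Of 21 p53 targets, 1 was higher and 0 lower by the size rule. That gene was Gadd45a, a stress gene of growth arrest that ATF4 also controls, at 9.63 in clone A1 and 7.32, 7.76, 7.42 and 7.61 in the clones (2.11 ± 0.20, limma adjusted p = 0.00826). Mdm2, the p53 ligase, was at 11.09 in clone A1, with 11.05 to 11.12 in the clones and 10.26 in parental cells. limma called 3 p53 targets higher and 4 lower, with 2 lower without clone A2, A3 or A5 and 1 without A4. Without clone A3 or A4 the size rule held for 1 p53 target on the lower side. Of 19 genes tied to senescence, 1 was higher and 3 lower by the size rule. The lower ones were Hmgb2 (−3.18) and Lmnb1 (−2.04), nuclear proteins that are also lost in senescent cells, and Igfbp7 (−2.09, not called by limma), and the higher one was Vegfa (1.20), the endothelial growth factor. The secreted factors Il6, Cxcl1 and Ccl2 had 0.10, −0.30 and −0.59, none called. limma called 1 gene of this list higher and 3 lower, with 0 higher without clone A2, A3 or A5 and 1 lower without A5. Calls of Lmnb1 and Vegfa were lost without clone A2, A3 or A5 (limma adjusted p from 0.0646 to 0.0916).

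Genes of ribosome making were lower by a smaller amount. Of 29 ribosome biogenesis and MYC genes, 10 were lower by the size rule, 12 by limma and 0 higher by either (1 by limma without clone A2), with a median of −0.76 against the clones and −0.88 against parental cells. The limma count was 4 without clone A3 and 4 without clone A5. Nop56, a core protein of small nucleolar ribonucleoproteins, was at 10.48 in clone A1 and 11.60, 11.57, 11.42 and 11.61 in the clones (−1.07 ± 0.09, limma adjusted p = 0.00696). Dkc1, the pseudouridine synthase dyskerin, had −1.69 and Srm, spermidine synthase, −1.45, and both calls were lost without clone A3 or A5 (limma adjusted p from 0.0524 to 0.0562). Myc itself had −0.50 ± 0.15 and was not called (limma adjusted p = 0.093).

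**Figure D4:**
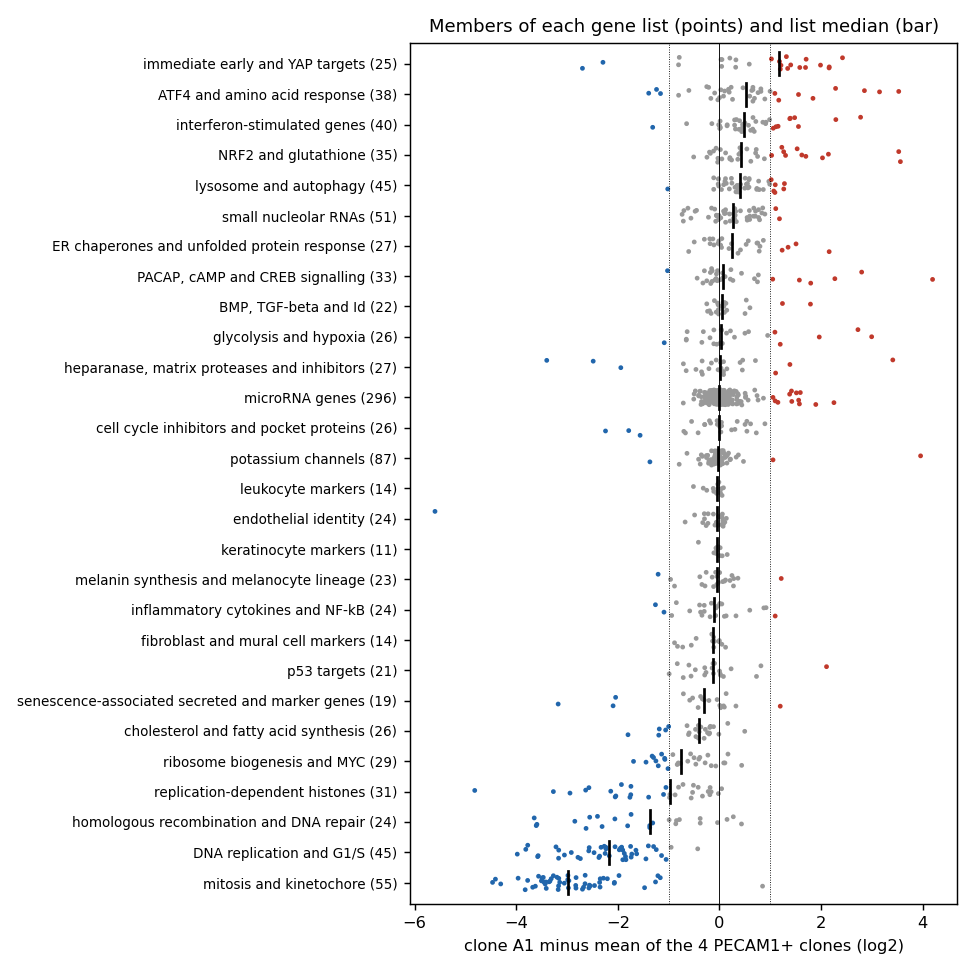
Log2 difference between clone A1 and the mean of the 4 PECAM1+ clones (horizontal axis) for the members of each gene list, 1 point per gene, with the number of measured members in brackets. Points past the size rule are red (higher) or blue (lower), bars are list medians and dotted lines lie 1 log2 unit from 0. The 4 lists at the bottom, with medians from −2.99 to −0.98, are mitosis, DNA replication, recombination and repair, and histones, and the list at the top, with a median of 1.18, holds immediate early and YAP target genes.

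Stress genes of the ATF4 pathway were higher in part. Of 38 measured genes of ATF4 and the amino acid response, 8 were higher by the size rule (background 3.25%) and 3 lower, while limma called 17 higher (background 11.2%) and 4 lower. The median was 0.53 against the clones and 0.38 against parental cells. The limma count of higher genes was 11 without clone A2, A3 or A4 and 7 without clone A5, and that of lower genes was 2 without clone A2, 1 without A3 and 1 without A5. Slc7a11, the cystine importer of system xc-, was at 11.41 in clone A1, at 7.30, 8.23, 7.79 and 8.23 in the clones and at 5.80 in parental cells. Clone A1 was 11.5-fold above the clones and 49-fold above parental cells (3.53 ± 0.43 against the clones, limma adjusted p = 0.0139). Atf3, a stress-induced transcription factor, was at 11.24 in clone A1 and at 7.99, 8.60, 7.75 and 8.02 in the clones, with 8.32 in parental cells. Nupr1, a small nuclear stress protein, was at 10.77 in clone A1, at 7.32, 8.40, 8.11 and 7.85 in the clones and at 7.43 in parental cells. Trib3, a pseudokinase induced by ATF4, was at 9.87 against 6.98, 7.98, 7.83 and 7.55, with 6.94 in parental cells. For each of the 4 genes clone A1 lay above every other B16F10 array.

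Others of the pathway followed at a smaller size. Ppp1r15a, the phosphatase subunit that restores translation, had a difference of 1.84, and Ddit3, which encodes the factor CHOP, of 1.56. Atf4 itself was at 9.61 in clone A1 and 8.89, 9.01, 9.01 and 8.91 in the clones (0.66 ± 0.08, limma adjusted p = 0.0125), and Asns, asparagine synthetase, at 12.13 against 11.45, 11.61, 11.27 and 11.42 (0.69). Members on the other side were genes of serine synthesis, Psat1 (−1.39) and Phgdh (−1.16), and Ddit4 (−1.24), an inhibitor of mTOR signalling. Many of these limma calls were near the threshold on leaving out a clone. Slc7a11, Atf3 and Atf4 were lost without clone A5 (limma adjusted p = 0.0501, 0.0561 and 0.0505), and Nupr1 and Trib3 without clone A3, A4 or A5 (0.0504 to 0.114). Ppp1r15a was lost without clone A2 or A5 (0.0564 and 0.0719) and Ddit3 without A2 (0.0539). Phgdh and Ddit4 were lost without A2, A3 or A5 (0.0686 to 0.104), and Asns without any 1 clone (0.0518 to 0.123). The call of Psat1 held throughout.

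The promoters of the 4 leading genes are shown with the amino acid response element, also called CARE, in capitals (TGATGNAA, searched on both strands, so that its reverse form is in capitals too). They are RefSeq windows on GRCm38.p6, each on the minus strand: chr3:50443564-50443863 for Slc7a11, chr7:126625421-126625720 for Nupr1, chr1:191183284-191183583 for Atf3 and chr2:152344011-152344310 for Trib3.
Slc7a11: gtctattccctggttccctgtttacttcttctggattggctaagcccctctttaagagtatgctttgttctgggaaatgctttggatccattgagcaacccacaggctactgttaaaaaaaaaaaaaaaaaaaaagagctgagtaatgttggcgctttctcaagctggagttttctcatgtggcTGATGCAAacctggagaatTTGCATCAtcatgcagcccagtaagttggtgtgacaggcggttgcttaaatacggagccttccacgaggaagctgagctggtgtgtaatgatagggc
Nupr1: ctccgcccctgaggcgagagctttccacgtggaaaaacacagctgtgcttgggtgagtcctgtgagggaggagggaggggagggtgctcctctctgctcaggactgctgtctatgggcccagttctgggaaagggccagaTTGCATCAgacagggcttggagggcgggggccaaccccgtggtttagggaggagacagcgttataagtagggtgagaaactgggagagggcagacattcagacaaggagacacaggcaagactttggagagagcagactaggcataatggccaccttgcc
Atf3: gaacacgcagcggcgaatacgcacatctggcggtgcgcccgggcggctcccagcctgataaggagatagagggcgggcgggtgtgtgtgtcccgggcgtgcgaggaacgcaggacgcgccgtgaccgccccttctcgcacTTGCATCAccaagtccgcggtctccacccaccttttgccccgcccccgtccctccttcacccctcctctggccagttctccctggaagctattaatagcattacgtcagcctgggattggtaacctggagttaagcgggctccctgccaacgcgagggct
Trib3: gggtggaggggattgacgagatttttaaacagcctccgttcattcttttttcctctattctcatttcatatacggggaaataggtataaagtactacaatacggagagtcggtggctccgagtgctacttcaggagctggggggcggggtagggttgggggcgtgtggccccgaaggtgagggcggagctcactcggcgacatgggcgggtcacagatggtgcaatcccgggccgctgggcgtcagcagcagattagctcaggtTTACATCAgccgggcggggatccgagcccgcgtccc

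Slc7a11 held the element at −66 and −47 from the start, once in each orientation, Nupr1 and Atf3 at −110 and Trib3 at 15. Among the ATF4 genes past the size rule on the higher side, 6 of 8 windows held the element, and among the others of the list 4 of 26 (15.4%), against 3.97% of all 32851 windows. These 8 genes were picked by their level in clone A1, so the shares are a description of these windows.

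Genes of the endoplasmic reticulum stress response moved in part. Of 27, 4 were higher and 0 lower by the size rule, and limma called 10 higher and 4 lower, with a median of 0.24. The limma count of higher genes fell on leaving out any clone, most without A4, and that of lower genes fell too, most without A2. The 4 were Dnajb9, a chaperone cofactor (10.92 in clone A1 against 8.64, 8.73, 8.92 and 8.75 in the clones, with 8.26 in parental cells), Xbp1, the transcription factor of the IRE1 branch (1.51), Sel1l, which works in the disposal of unfolded protein (1.35), and Eif2ak3, which encodes the sensor kinase PERK (1.23). Their calls held on leaving out any clone. The folding enzymes of the lumen differed less, with Hspa5 (BiP) at 0.52 and called, and Hsp90b1, Calr and Pdia3 at 0.02, −0.19 and −0.01 and not called.

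Glutathione and NRF2 genes were higher without an exception among the calls. Of 35, 11 were higher and 0 lower by the size rule and 14 higher and 0 lower by limma, with a median of 0.42 against the clones and 0.55 against parental cells. The limma count fell on leaving out any clone, most without A3 or A5. Gsta4, a glutathione transferase that clears 4-hydroxynonenal, was at 9.65 in clone A1, at 5.55, 5.61, 7.02 and 6.18 in the clones and at 5.86 in parental cells (3.56 ± 0.66, limma adjusted p = 0.0339). Clone A1 was the highest array, and clone A4 was next. Hmox1, heme oxygenase 1, was at 12.66 against 10.41, 10.64, 10.66 and 10.38, with 9.91 in parental cells (2.14 ± 0.14, limma adjusted p = 0.00479). The transferase gene Mgst1 had 2.03 and Osgin1, an oxidative stress gene, 1.70. Srxn1, which repairs peroxiredoxins, had 1.62 and Gclc, the catalytic subunit of glutathione synthesis, 1.30. Gpx1 and Gpx4, the glutathione peroxidases, had −0.51 and −0.25, neither called. Nfe2l2, which encodes NRF2, and its inhibitor gene Keap1 had 0.38 and 0.40 and were not called. Gstm6, a transferase outside the list that was among the 15 highest genes, had 3.19. The call of Gsta4 was lost without clone A2, A3 or A5 (limma adjusted p from 0.0843 to 0.109), that of Mgst1 without A3 or A5 (0.0638 and 0.0695), that of Gstm6 without A5 (0.0501) and that of Osgin1 without any 1 clone (0.0542 to 0.0848).

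The ligand Adcyap1 was high in clone A1 while its receptors were not. Adcyap1 was at 9.64 in clone A1, at 5.50, 5.40, 5.45 and 5.45 in the clones, at 5.85 in parental cells and at 5.31 in MDEC. The clones and MDEC lay near the floor of the arrays, which limits what the small spread of the clones shows for this gene. Clone A1 was 18.3-fold above the clones, whose levels lay within 0.10 units of each other (4.19 ± 0.05, limma adjusted p = 0.0005). The receptor genes Adcyap1r1, Vipr1 and Vipr2 had differences of −0.04, 0.06 and 0.06, and the adenylate cyclase genes had differences from −0.44 (Adcy7) to 0.08 (Adcy9). Of the whole list of 33 genes of PACAP, cyclic AMP and CREB, 6 were higher and 1 lower by the size rule and 6 higher and 2 lower by limma, with a median of 0.06. Without clone A3 or A5 limma called 4 higher, and without A3 1 lower. The size rule held for 0 on the lower side without A2. The higher ones were the ligand and genes that cyclic AMP is known to induce, as are other signals. Whether PACAP or cyclic AMP raised them in clone A1 was not tested. Nr4a1, an orphan nuclear receptor, was at 11.29 in clone A1 and 8.75, 8.42, 8.61 and 8.20 in the clones, with 8.66 in parental cells (2.80 ± 0.23, limma adjusted p = 0.00677). Its relatives Nr4a3 and Nr4a2 had 2.27 and 1.57, and Crem, which encodes the CREB relative that includes an inducible repressor, had 1.80. The call of Nr4a3 was lost without clone A2, A3 or A5 (limma adjusted p from 0.0535 to 0.0898). Ppargc1a, a coactivator, had 1.05 and was not called, and Prkar2b, a regulatory subunit of protein kinase A, had −1.02, a call lost without clone A3, A4 or A5 (0.0658 to 0.0724).

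Immediate early genes, the first genes transcribed after a signal, were the list with the highest median. Of 25 immediate early and YAP target genes, 14 were higher and 2 lower by the size rule, and limma called 11 higher and 2 lower, with a median of 1.18 against the clones and 1.11 against parental cells. Without clone A5 limma called 7 higher, and without A2, A4 or A5 it called 1 lower. Jun was at 11.86 in clone A1, at 9.42, 9.76, 9.19 and 9.38 in the clones and at 9.55 in parental cells (2.42 ± 0.23, limma adjusted p = 0.00878). Its partner genes Fos and Fosb had 1.71 and 1.40, and the zinc finger genes Klf4, Egr2 and Egr1 had 1.99, 1.69 and 2.16. The call of Egr1 was lost without clone A2, A4 or A5 (limma adjusted p from 0.0508 to 0.0676). The YAP targets in the list differed among themselves. Ccn1 had 1.21, Ccn2 0.05, and Thbs1 and Ankrd1 −2.70 and −2.29, none of them called. The clones themselves spread over more than 3 units for both of the latter, with Thbs1 at 8.64, 11.76, 9.30 and 10.99 in the clones, 7.48 in clone A1 and 8.19 in parental cells. Spry4 (−0.81) and Dusp6 (−0.79), which restrain ERK signalling, were the 2 members called lower, and the call of Dusp6 was lost without clone A2, A4 or A5 (0.0524 to 0.0917).

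**Figure D5:**
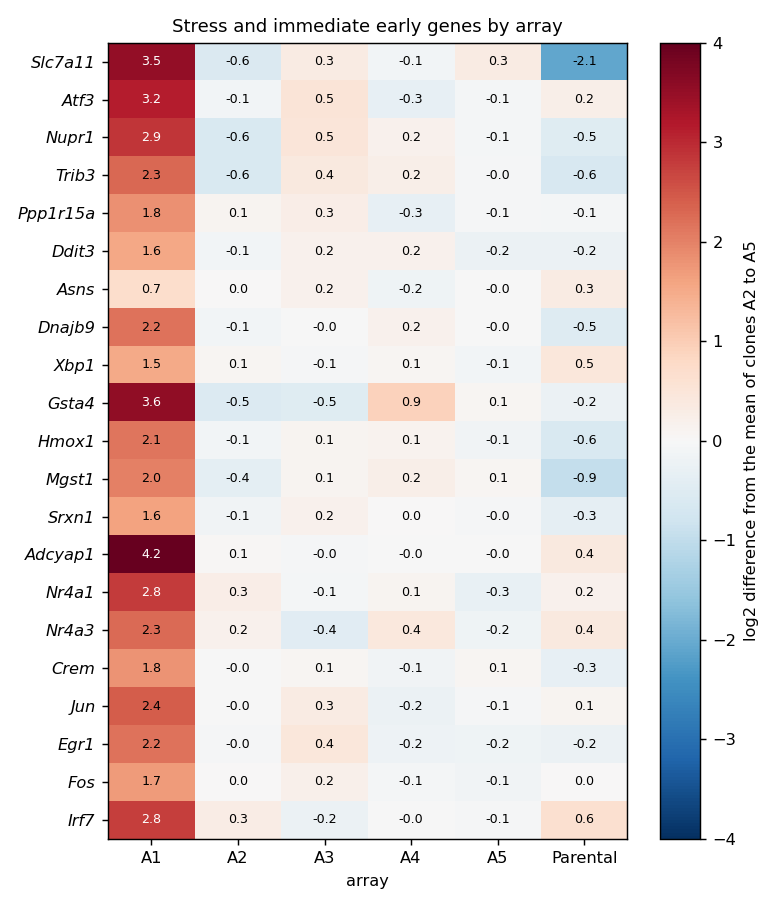
Log2 difference from the mean of clones A2 to A5 for 21 genes of the ATF4, endoplasmic reticulum, NRF2, PACAP and immediate early groups and Irf7 (rows) on the 6 B16F10 arrays (columns), with the value in each cell. The genes were chosen with their values known, so the column of clone A1 is positive for all 21, from 0.69 (Asns) to 4.19 (Adcyap1). List members lower in clone A1, such as Psat1, Phgdh, Ddit4, Thbs1, Ankrd1 and Irf1, are not shown. For Slc7a11 parental cells have a difference of −2.09 from the clones.

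Among potassium channels, Kcnj13 had by far the largest difference. Of 87 potassium channel genes, 2 were higher and 1 was lower by the size rule. The higher ones were Kcnj13, which limma did not call and which spread over 3.26 units in the clones, and Kcnab3 (1.05), an auxiliary subunit. The lower one was Kcnh2 (−1.37, not called by limma). limma called 2 higher (1 without clone A3) and 7 lower, which as shares of 87 are below the background, and the channels had a median of −0.03. Among 27 matrix proteases, heparan sulfate enzymes and inhibitors, 3 were higher and 3 lower by the size rule and 3 higher and 1 lower by limma. The higher ones were Hpse, Reck (1.39), a membrane-bound inhibitor of matrix proteases, and Timp3 (1.10, not called). The lower ones were Sulf2 (−2.49), which trims sulfate from heparan sulfate, and 2 genes that limma did not call, Adamts4 (−1.94) and Timp4 (−3.40). The matrix proteases Mmp2, Mmp9 and Mmp14 had −0.34, 0.08 and 0.15, none called. As shares of the 27, the limma count of higher genes lay near the background of 11.2% and that of lower genes below 9.33%. The size rule counts lay above the background of 3.25% and 3.32%. The call of Reck was lost without clone A2, A3 or A5 (limma adjusted p from 0.0579 to 0.0878) and that of Sulf2 without A5 (0.0529). Without clone A3 or A5 limma called 0 of the 27 higher, and without A2 it called 1 higher and 2 lower.

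The other genes among the 15 highest came from several roles. Usp11, a deubiquitinase, was at 9.63 in clone A1 and 6.70, 6.10, 6.33 and 6.26 in the clones, with 6.73 in parental cells. Cpn1, a carboxypeptidase subunit, was at 7.88 against 4.64, 4.74, 4.41 and 4.74, with 5.06 in parental cells. Edil3, a matrix protein that binds integrins, was at 8.18 against 4.98, 5.31, 5.16 and 4.95, with 5.60 in parental cells. For these 3 genes clone A1 lay above every other B16F10 array, and their limma calls held on leaving out any clone. In the clones Cpn1 and Edil3 were near the floor of the arrays. Morc1, Mgll, which encodes a monoacylglycerol lipase, and Ndrg2 were also above parental cells by 1.60, 1.80 and 2.07, but parental cells lay on their side of the clones. The limma call of Mgll was lost without any 1 clone (limma adjusted p from 0.0506 to 0.109).

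Interferon-stimulated genes were higher for part of the list. Of 40, 9 were higher and 1 lower by the size rule, and limma called 14 higher and 1 lower, with a median of 0.48 against the clones and 0.99 against parental cells. The limma count of higher genes fell on leaving out any clone, most without A2 or A5, and the lower call was lost without A2, A3 or A5. Irf7, the factor that amplifies the response, was at 8.17 in clone A1, at 5.70, 5.16, 5.39 and 5.34 in the clones and at 6.04 in parental cells (2.78 ± 0.22, limma adjusted p = 0.00607). In the clones Irf7 was near the floor of the arrays. Rsad2, the antiviral protein viperin, was at 11.20 in clone A1, at 9.58, 9.73, 9.80 and 9.76 in the clones and at 8.20 in parental cells. For Rsad2 the order was parental cells, clones and clone A1. The RNA sensor genes Ddx58 and Dhx58 had 1.38 and 1.39, and Irf9 and Stat2, parts of the factor that binds interferon response elements, 1.15 and 0.91. Isg20 had 2.29 and was not called. Tap1, Psmb9 and Mx1 had 0.00, 0.02 and 0.01. Irf1 went the other way (6.73 in clone A1 against 8.09, 8.31, 7.69 and 8.08), a call lost without clone A2, A3 or A5 (limma adjusted p from 0.0801 to 0.117), and that of Ddx58 was lost without A2, A4 or A5 (0.0576 to 0.0774). The interferon response element, taken as 2 GAAA units with 2 bases between them on either strand, was in 15 of 38 promoter windows of the list (39.5%) against 3.44% of all windows, with 40% in the genes past the size rule on the higher side and 39.3% in the others. Of 24 inflammatory genes, 1 was higher by the size rule (Ccl5, 1.10) and 2 lower (Lif, −1.26, and Csf1, −1.09), none of them called by limma. By the size rule there were 0 higher and 4 lower without clone A2, and 2 higher and 1 lower without A3. The background was 3.25% higher and 3.32% lower by the size rule, and 11.2% higher and 9.33% lower by limma. limma called 1 inflammatory gene higher, Nfkbie (0.87), and 2 lower, Icam1 (−0.39) and Tnfaip3 (−0.18), with 1 lower without clone A4. The call of Icam1 was lost without clone A2, A3 or A4 (limma adjusted p from 0.0918 to 0.107).

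Lysosome and autophagy genes were higher by small amounts. Of 45, 6 were higher and 1 lower by the size rule and 19 higher and 1 lower by limma, with a median of 0.40 against the clones and 0.63 against parental cells. The limma count of higher genes was 10 without clone A2, 10 without A3, 11 without A4 and 8 without A5. Gaa, the acid glucosidase, and Gabarapl1, an ATG8 protein of the autophagosome, had 1.28 and 1.27, and Tfe3, a transcription factor of lysosome genes, had 1.10. The cathepsin genes Ctsd and Ctsl had 0.23 and 0.19 and were not called. Gusb, beta-glucuronidase, was the member called lower (−1.02), and without clone A2 or A5 the size rule held for 0 on the lower side. The call of Tfe3 was lost without clone A2 or A5 (limma adjusted p = 0.0754 and 0.0878).

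Lipid synthesis and energy genes differed less. Of 26 cholesterol and fatty acid synthesis genes, 5 were lower and 0 higher by the size rule and 11 lower and 0 higher by limma, with a median of −0.41 against the clones and −0.30 against parental cells. The limma count fell on leaving out any clone, most without A3. Elovl6, an elongase of fatty acids, had −1.80 and Ebp, a sterol isomerase, −1.06, and both calls held on leaving out any clone. Of 26 glycolysis and hypoxia genes, 5 were higher and 1 lower by the size rule and 3 higher and 1 lower by limma, with a median of 0.04. As shares of these 26, the limma counts lay near the background of 11.2% for higher genes and below that of 9.33% for lower genes. By the size rule the background was 3.25% higher and 3.32% lower. Car9, a carbonic anhydrase induced by hypoxia, was at 8.68 in clone A1, at 6.28, 5.91, 5.77 and 5.85 in the clones and at 7.58 in parental cells. Eno2, a neuronal enolase, had 1.96 and Ldha, lactate dehydrogenase, −0.64, while Pgk1, Pkm and Hif1a had 0.04, 0.01 and 0.06 and were not called. Without clone A4 limma called 5 of these genes higher and 3 lower, and without A2 the size rule held for 0 on the lower side.

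The medians of the melanocyte and endothelial lists stayed near 0. Of 23 melanocyte genes, 1 was higher and 1 lower by the size rule, with a median of −0.05. Without clone A3 there were 0 higher and 2 lower, and without A2 2 lower. The lower one was Rab32 (−1.21), which serves the making of melanosomes, and the higher one Oca2 (1.22, not called). limma called 0 melanocyte genes higher and 3 lower, Rab32, Mlph and Pax3, with 1 lower without clone A2 and 0 lower without A3 or A5 (limma adjusted p for these 3 genes from 0.064 to 0.119). Of 24 endothelial genes, Pecam1 was the 1 past the size rule, and limma called 6 lower, Pecam1 and 5 genes within 2-fold. As a share of the 24, that count lay above the background of 9.33%. Clone A1 lay below the range of the clones for 10 of the 24 and above it for 2, against 6218 and 5728 of all 19938 genes. Cdh5, Kdr and Tek had differences of 0.07, 0.07 and −0.02 and were not called. Of 22 BMP and TGF-beta genes, 2 were higher by the size rule, the inhibitor gene Smad7 (1.79), whose limma call was lost without any 1 clone (limma adjusted p from 0.0557 to 0.109), and Id3 (1.24, not called). Without clone A2 the size rule held for 1 of them.

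Some probe sets of the arrays lie on genes of microRNAs, short RNAs that pair with messengers through a seed of bases 2 to 8. These arrays cannot tell a primary transcript from a hairpin or a mature microRNA. Of 296 microRNA genes, 12 were higher and 0 lower by the size rule and 27 higher and 11 lower by limma, with a median of −0.00011. As a share, the limma count of higher genes lay below the 11.2% of all genes. On leaving out a clone limma called between 20 and 26 higher and between 6 and 14 lower, with 6 lower without clone A3. As a share of the 296, the 12 genes higher by the size rule lay near the background of 3.25%. The mature sequences of 8 of them are shown, 5′ to 3′ from RefSeq with the seed in capitals, because members of a seed group had unequal differences.
mmu-let-7f-5p: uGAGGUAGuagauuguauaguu
mmu-let-7d-5p: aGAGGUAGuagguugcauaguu
mmu-miR-98-5p: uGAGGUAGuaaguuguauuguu
mmu-miR-19a-3p: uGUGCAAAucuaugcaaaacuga
mmu-miR-19b-3p: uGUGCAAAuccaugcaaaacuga
mmu-miR-27a-3p: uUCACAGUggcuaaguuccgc
mmu-miR-23a-3p: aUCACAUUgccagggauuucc
mmu-miR-29a-3p: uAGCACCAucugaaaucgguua

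The let-7 genes share the seed GAGGUAG, and 3 of them, Mirlet7f-1, Mirlet7d and Mir98, passed the size rule. Mirlet7f-1 was at 6.00 in clone A1, at 3.88, 3.89, 3.67 and 3.56 in the clones and at 3.82 in parental cells (2.25 ± 0.16, limma adjusted p = 0.00523). Mirlet7d was at 7.31 against 6.00, 5.74, 6.00 and 5.83, and Mir98 at 6.18 against 4.71, 4.72, 4.72 and 4.89. Of the 10 let-7 genes measured, limma called 4 higher and 0 lower. Mirlet7a-1 and Mirlet7f-2 had 0.07 and 0.09 and were not called, although Mirlet7f-2 yields the same mature sequence as Mirlet7f-1. Mirlet7f-1 and Mirlet7d lie on chromosome 13 of GRCm38.p6 and Mir98 on the X chromosome. On chromosome 14, a microRNA gene that lies between Mir19a and Mir19b-1 also passed the size rule (1.05). Mir19a and Mir19b-1, which share the seed GUGCAAA, had 1.15 and 1.57, and their host gene Mir17hg had 0.23 and was not called. Both calls were lost without clone A3, A4 or A5 (limma adjusted p from 0.0521 to 0.0837). Mir27a and Mir23a, which are neighbours on chromosome 8, had 1.59 and 1.10, and Mir29a had 1.90 (4.80 in clone A1 against 2.91, 2.99, 3.05 and 2.67). In the clones Mirlet7f-1, Mir98, Mir19b-1 and Mir29a were near the floor of the arrays, and Mir29a was near it in clone A1 too. The mean over all microRNA genes was 4.80 in clone A1 and 4.71 to 4.75 in the clones.

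Small nucleolar RNAs showed a different order. Of 51, 2 were higher by the size rule and limma called 8 higher and 4 lower, with a median of 0.27 against the clones. Against parental cells the median was −0.25, because parental cells lay above the clones (0.53). The limma count of higher genes was 1 without clone A3, 3 without A5 and 4 without A2, and that of lower genes was 0 without A2 and 1 without A4 or A5. Without A4 the size rule held for 1 higher gene. The array means of the list were 7.88 in clone A1, 7.59 to 7.71 in the clones and 8.12 in parental cells. As shares of the 51, the size rule count lay near the background of 3.25%. The limma count of higher genes lay above the background of 11.2% and that of lower genes below 9.33%.

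For a small set, parental cells lay at least 1 unit from the clones on the side of clone A1, at varying distance from clone A1 itself. Praf2, a membrane protein of vesicle traffic, was at 10.11 in clone A1 and 9.37 in parental cells, and at 5.86, 5.47, 5.31 and 5.98 in the clones. It had the largest positive difference of all genes (4.46 ± 0.31, limma adjusted p = 0.0051). Fndc3c1 was at 7.88 in clone A1, 8.89 in parental cells and 4.38, 4.49, 4.21 and 4.29 in the clones, which is near the floor of the arrays. Bscl2, the seipin gene of lipid droplets, Cav1, which encodes caveolin, and Npl, a sialic acid lyase, were higher in clone A1 than in the clones by 1.81, 1.63 and 2.11, and differed from parental cells by 0.31, 0.02 and −0.98. On the lower side, Pmp2, a fatty acid binding protein of myelin, was at 4.29 in clone A1, 5.81 in parental cells and 7.91, 10.27, 9.48 and 9.52 in the clones. Ptp4a3, a phosphatase, and Ece1, which processes endothelin, had −2.53 and −2.09 against the clones and −0.83 and −0.80 against parental cells. Pmp22, another myelin protein, was at 8.93 in clone A1, 9.46 in parental cells and 11.44, 12.16, 10.94 and 11.81 in the clones. The calls of Pmp2 and Pmp22 against the clones were lost on leaving out 3 of the 4 clones (limma adjusted p from 0.0723 to 0.117), for Pmp2 clones A3, A4 and A5 and for Pmp22 clones A2, A3 and A5.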

How the data were processed

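The authors deposited log2 values for each probe set on each array. They used Partek, per the submitters' processing notes, which list no version, and how background, summary and normalization were handled is not given in the sources used here. Array medians lay between 6.12 and 6.18, so no array was scaled again. Signal over background is unknown, and precision is limited by how few arrays there are. Between 8.40% and 13.03% of the genes had the same value in a pair of the 5 arrays compared, and 502 had the same value in all 4 clones, which makes their spread too small.

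The platform annotation gave 1 symbol to 21789 of 35557 probe sets, several to 1621 and none to 12147, and 21698 of the first matched a RefSeq gene table. Genes with several probe sets (999) took the probe set whose mean over the 7 arrays was highest, which left 19938 genes. Fits used limma 3.58.1 in R 4.3.3 (lmFit, eBayes with trend, two-sided, Benjamini-Hochberg over all genes, threshold 0.05). The code was run on simulated data in which clone A1 varied like the clones, so that assumption itself was not tested. Differences are clone A1 minus the mean of the clones. Counts and medians of 27 gene lists and of the microRNA genes were computed with pandas 2.3.3, and members that share a probe set with another gene were not analysed here. The genes named are the 7 markers, Pecam1, the 15 highest and 15 lowest genes past the size rule (without predicted, receptor, small RNA and histone genes), list members by size of difference or role, members against their list's direction, and genes shared with parental cells or beside the limit of 1, chosen after their values were seen. Members, lists and comparisons were chosen with earlier results of these data known. Promoter windows and mature microRNAs come from RefSeq tables on GRCm38.p6.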

Additional observations from a re-analysis of the deposited data

Results flagged for a closer look

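Over the 4 PECAM1+ clones, each of the 206 genes named was checked for 1 clone far from the other 3 by Dixon's gap ratio, which chance passes for about 1 in 20 genes, and 14 genes passed. Identical values between arrays, described with the processing, shorten the range of the other 3 clones for several of them. Clone A5 was apart for Cdkn2a (5.83), Dhx58 (6.32), Icam1 (7.30), Mdm2 (11.12), Mir17hg (5.29), Mir98 (4.89) and Tnfaip3 (5.71). Clone A2 was apart for Mir19b-1 (4.82, with 4.29 to 4.34 in the others), Ptp4a3 (9.89) and Tk1 (10.70, with 10.61 in the others). Clone A3 was apart for Cdkn1b (10.12) and Vipr1 (6.18), and clone A4 for Kcnab3 (5.58) and Ndrg2 (6.91, with 7.54 to 7.65 in the others). For Ndrg2, Tk1, Mir98, Mir19b-1 and Ptp4a3 clone A1 lay outside the range of the clones with the outlying clone included.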

How the results depend on the processing

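Clone A1 has 1 array, so no value here carries a replicate of clone A1, and the limma fits borrow their spread from 4 clones. No paired analysis was possible because clone A1 and parental cells have 1 array each and the labels pair neither with a PECAM1+ clone. Counts of limma calls against the clones lay between 3893 and 4928 under quantile normalization, median centring, a filter on dim genes (mean of at least 6), the mean of probe sets, eBayes without trend, robust eBayes, parental cells joined to the clones and all probe sets, against 4089. On leaving out 1 clone they ran from 2108 to 3526. Calls against parental cells (2862) lay between 2739 and 2929 under the first 5 of these settings and between 1340 and 2777 without 1 clone. The 1308 genes past the size rule became 285 at 4-fold and 2369 with all probe sets, named or not, and the 1031 apart from parental cells too became 230 at 4-fold, and both stayed within 1.5 times under the other settings. Of 206 genes named, 19 lost their limma call with parental cells joined to the clones and 41 without clone A5, and the direction of no called gene turned under the settings run.

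Medians of 20 of 28 lists moved by less than their SD over the clones under quantile normalization, and 20 of 28, not all the same lists, under median centring. Median centring shifts the difference of every gene by the same amount, so a list counts as moved there only where its SD is smaller than that shift. The cause of the other moves was not tested. The medians of the lists that moved by at least their SD were as follows. With quantile normalization they were 0.27 for endoplasmic reticulum stress, 0.45 for NRF2, −0.012 for endothelial, −0.0059 for leukocyte, 0.0095 for keratinocyte, −0.0004 for potassium channel, 0.22 for small nucleolar RNA and 0.015 for microRNA genes. With median centring they were −0.10 for p53, 0.27 for endoplasmic reticulum stress, 0.45 for NRF2, 0.092 for PACAP, −0.014 for endothelial, −0.0078 for leukocyte, −0.0006 for potassium channel and 0.032 for microRNA genes. With dim genes left out they were −0.20 for p53, −0.56 for senescence, 0.64 for ATF4, 0.30 for endoplasmic reticulum stress, 0.48 for NRF2, 0.22 for PACAP, 0.10 for BMP, −0.26 for endothelial, −0.11 for leukocyte, −0.64 for fibroblast, 0.054 for keratinocyte, −0.061 for potassium channel, −1.05 for histone and −0.025 for microRNA genes, and with the mean of probe sets 0.026 for PACAP. On leaving out 1 clone, medians ran from −0.16 to −0.10 for p53, 0.20 to 0.31 for endoplasmic reticulum stress, 0.44 to 0.58 for interferon, 0.40 to 0.48 for NRF2, 0.010 to 0.075 for PACAP, 0.22 to 0.27 for small nucleolar RNA and −0.0083 to 0.0043 for microRNA genes.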
